A study of Danio rerio with 12 samples.

Results

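The genes described here encode plasma membrane and organelle carriers that move sugars, inositol, organic acids, bile acids, vitamins, organic anions and cations, fatty acids and nucleosides in the zebrafish embryo. They were chosen by family name alone: every listed gene whose symbol opens with one of the solute carrier family numbers 2, 5, 10, 13, 16, 19, 22, 23, 27, 28, 29, 46 or 47, or with slco. The rule itself reads no measured value, though the families were picked with earlier results of these data known. It gave 113 of the 31901 listed genes, all of them annotated as protein coding, under 112 symbols, because slc27a1b stands on 2 gene IDs. By family the 113 fell into 8 classes: 30 sugar and sodium-coupled carriers (slc2 and slc5), 5 of the bile acid family (slc10), 6 dicarboxylate and sulfate carriers (slc13), 16 monocarboxylate carriers (slc16), 10 vitamin carriers (slc19, slc23 and slc46), 34 organic ion carriers (slc22, slc47 and slco), 6 fatty acid carriers (slc27) and 6 nucleoside carriers (slc28 and slc29).

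Solute carriers let small polar molecules cross lipid membranes. Some move them down their own gradient, as the facilitative glucose carriers of the slc2 family do. Others couple them to sodium, protons or a counter-ion, as in the slc5, slc13 and slc23 families and part of the slc16 family. The slc27 proteins join fatty acid uptake to the formation of acyl-CoA, and the slc22, slc47 and slco families handle organic ions, hormones, bile salts and drugs, above all in kidney and liver. An early zebrafish embryo takes its nutrients from the yolk, across the yolk syncytial layer, while the pronephric kidney, the pigment cells and the brain vessels are forming, and each of these tissues carries its own set of carriers.

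RNA was sequenced from whole wild-type embryos kept in the test solution from 6 to 24 hours post-fertilisation (hpf). The 12 libraries make 3 groups of 4: vehicle at 0.1% DMSO, GW9662 at 75 µM and rosiglitazone at 25 µM. GW9662 irreversibly blocks the nuclear receptor PPARγ, which rosiglitazone activates. Because the doses were unequal, the sizes of the responses are not compared as potencies. The groups follow the sample titles. A separate treatment field has TBBPA against each GW9662 library and DMSO against each rosiglitazone library, while the library names and the treatment protocol go with the titles. A batch tag gives every library a value of its own, from 24 to 35 hpf, that rises through the groups, so what it records and the group cannot be told apart. Nothing says that libraries of a group came from separate clutches, and p-values measure only the spread between these libraries.

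Between 12772174 and 22746500 fragments per library were assigned to genes, with overlapping ranges in the 3 groups. Values are FPKM, fragments scaled to gene length and library size, and a fold or log2 change is on the scale of FPKM + 0.5, which understates the change of low genes. The test took in the 14433 genes that reached 1 FPKM in 4 or more libraries, and a gene was called at a Benjamini-Hochberg adjusted p under 0.05 in limma. Of the 113 carriers 55 were tested. All 12 libraries were at or over 1 FPKM for 48 of these 55, and no carrier reached the filter through the libraries of 1 group alone. Both slc27a1b and slco3a1 reached 1 FPKM in no GW9662 library, and so passed only through the other groups.

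In vehicle embryos the carriers spanned the whole range from no fragment to over 100 FPKM. The fatty acid carrier slc27a2a stood first by far, at 102 ± 6.07 FPKM (SD, n = 4), and alone made up 22.2% of the summed FPKM of all carriers. Next came 13 genes between 10 and 50 FPKM, among them the equilibrative nucleoside carrier slc29a1a at 23.4 ± 1.57, the sulfate carrier slc13a4 at 21.2 ± 0.681, the bile acid family member slc10a3, whose substrate is not established, at 18.99 ± 1.55, the ketone body carrier slc16a6a at 16.1 ± 0.728 and the glucose carrier slc2a2 (GLUT2) at 15.8 ± 0.270 FPKM. A further 40 lay between 1 and 10 FPKM, 34 between 0.1 and 1, and 25 under 0.1 FPKM. No fragment was assigned in any library to the second slc27a1b ID, slc16a5b, slco1f2, slco1f3 or slc2a5, and these 5 belong to 11 carriers with at most 3 fragments over all 12 libraries. At this depth such genes are below detection rather than shown to be absent.

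**Figure D1:**
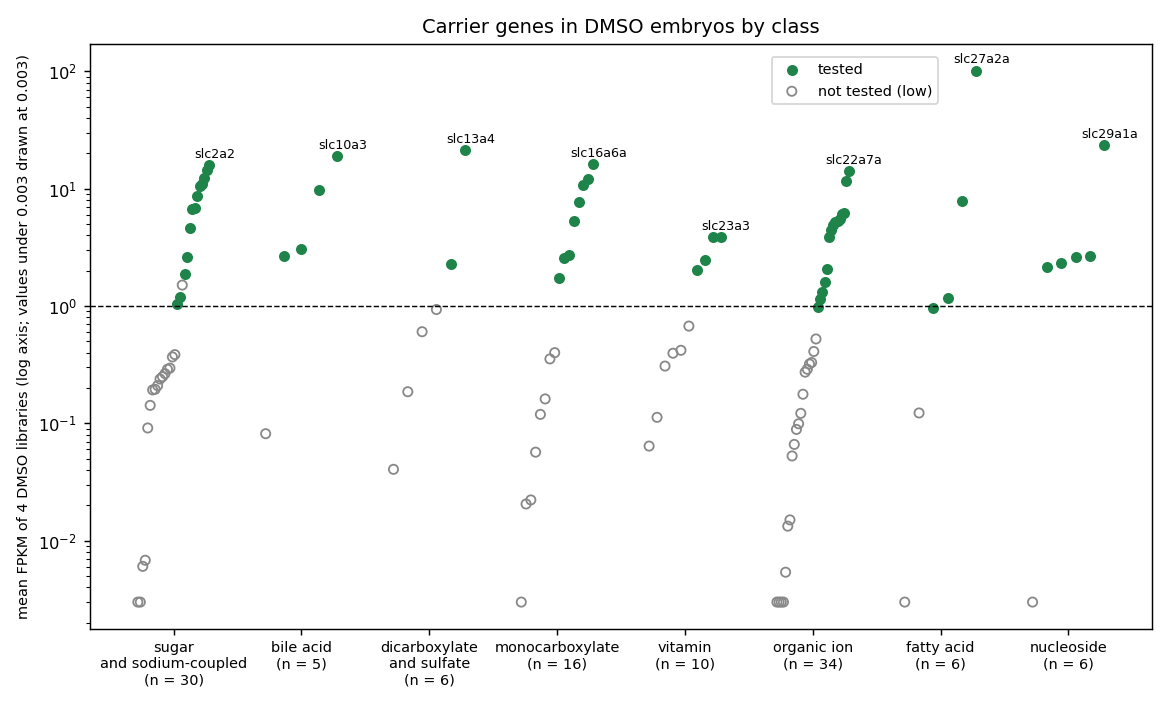
Mean FPKM of the 4 DMSO libraries (log axis) for each of the 113 carriers, by class and in rising order within a class; filled points are the 55 tested genes, open points the 58 that were too low to test, and the dashed line is 1 FPKM. The highest gene of each class is named, and slc27a2a at 102 FPKM stands above all others.

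Most tested carriers changed in GW9662 embryos. Of the 55, 36 were called (65.5%), 23 higher and 13 lower, where 36.0% of all tested genes were called, 18.9% higher and 17.1% lower. The median log2 change was 0.18 over the tested carriers and 0.01 over all tested genes. Among the called carriers 8 differed at least 2-fold (14.5%, against 3.94% of all genes). The 4 GW9662 libraries lay wholly above or below the 4 DMSO libraries for 36 carriers (65.5%, against 37.0% of all genes), 23 above (19.4% of all genes) and 13 below (17.5%). Summed over all carriers, the level went from 458 ± 10.6 FPKM in DMSO to 656 ± 9.92 in GW9662 (SD, n = 4), and without slc27a2a from 356 ± 5.26 to 494 ± 12.9.

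In rosiglitazone embryos 26 of the 55 were called (47.3%), 16 higher and 10 lower, against 17.0% of all tested genes, 9.29% higher and 7.68% lower. The median log2 change was 0.05 over the carriers. Only slc16a9b, slc22a7a and slc2a15a were called with at least a 2-fold change, 3 carriers or 5.45%, where the share of all genes was 0.915%. The libraries of the groups did not overlap for 27 carriers (49.1%, against 20.5% of all genes), 15 above (10.9% of all genes) and 12 below (9.60%). The summed level was 491 ± 8.48 FPKM, or 407 ± 7.02 without slc27a2a. Both comparisons use the same 4 DMSO libraries, so values for the compounds are given side by side and are not independent.

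**Figure D2:**
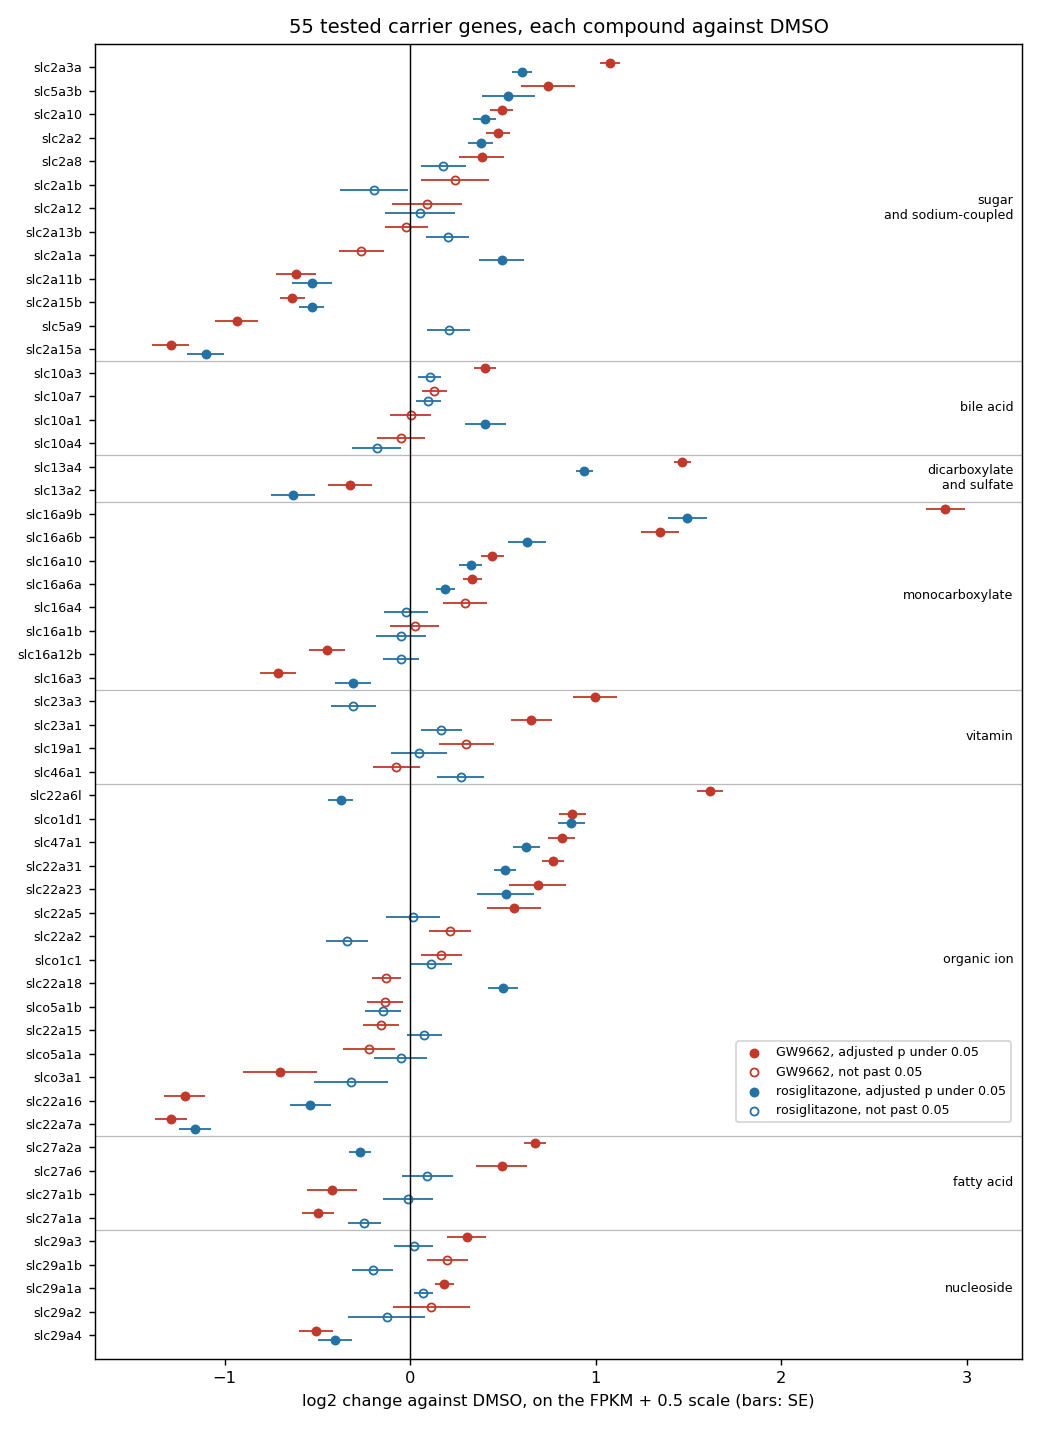
Log2 change against DMSO, on the FPKM + 0.5 scale, of the 55 tested carriers by class (red, GW9662; blue, rosiglitazone; bars are the SE of the limma model; filled points have an adjusted p under 0.05). The largest change is that of slc16a9b at 2.88 in GW9662 embryos, and slc22a6l and slc27a2a are filled on opposite sides of 0.

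Members of the slc2 family moved in both directions. The neuronal-type glucose carrier slc2a3a (GLUT3) rose under both compounds, as did slc2a2 and slc2a10, while slc2a15a, slc2a15b and slc2a11b fell under both. Of the 13 tested sugar and sodium-coupled carriers, GW9662 embryos had 5 higher and 4 lower, and rosiglitazone embryos 5 higher and 3 lower. The share of all tested genes called was 36.0% with GW9662 and 17.0% with rosiglitazone. The summed level of the class was nearly level, at 102 ± 4.58 FPKM (SD, n = 4) with vehicle, 104 ± 3.41 with GW9662 and 105 ± 2.58 with rosiglitazone.

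The slc2a3a gene (ENSDARG00000013295) lies on the minus strand of chromosome 19 from 9685165 to 9712530 in the deposited table. It read 11.2, 10.1, 10.8 and 11.6 FPKM in the DMSO libraries, 25.4, 22.1, 23.3 and 23.4 with GW9662, and 17.0, 15.97, 17.1 and 17.1 with rosiglitazone. The 3 groups do not overlap, with every rosiglitazone library between the others. Its log2 change was 1.08 ± 0.06 with GW9662 (SE, adjusted p = 1.14e-08) and 0.60 ± 0.06 with rosiglitazone (adjusted p = 1.31e-05). Of 5 neural markers, 2 were called lower and none higher with GW9662, and none was called with rosiglitazone. The shares of all genes called were 36.0% and 17.0%, and the part of neural cells in the slc2a3a result was not tested. GLUT2, which carries glucose at high concentrations in liver, gut and pancreas, read 15.5 to 16.1 FPKM in DMSO, 20.7 to 23.3 in GW9662 and 18.2 to 22.9 in rosiglitazone. Its changes were 0.47 ± 0.07 (adjusted p = 0.000101) and 0.38 ± 0.07 (adjusted p = 0.00161). It shares its strand and part of its span with tnika, at 5.55 FPKM in DMSO, and reads from the shared part could be split between them.

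The slc2a10 gene (GLUT10, lost in the human arterial tortuosity syndrome) rose from 6.75 ± 0.368 FPKM to 9.72 ± 0.661 with GW9662 and 9.07 ± 0.183 with rosiglitazone, by a log2 of 0.49 and 0.40. The myo-inositol carrier slc5a3b was low, at 1.05 ± 0.246 FPKM in DMSO, 2.08 ± 0.330 in GW9662 and 1.72 ± 0.214 in rosiglitazone, and was called higher in both, by 0.74 and 0.53. The rosiglitazone call is lost without DMSO replicate 2 or without rosiglitazone replicate 2 or 4 (adjusted p up to 0.0638). A rise of slc2a8 (GLUT8, an intracellular glucose carrier) by 0.38 ± 0.12 in GW9662 embryos is lost without DMSO replicate 1 or 2 or GW9662 replicate 1, 2 or 3 (adjusted p up to 0.0764), and its groups overlap. The sodium-coupled mannose and fructose carrier slc5a9, described with the comparison of the compounds, fell in GW9662 embryos.

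The slc2 carriers slc2a15a, slc2a15b and slc2a11b and the organic anion carrier slc22a7a were lower under both compounds, as were most pigment cell genes. In medaka, slc2a15b and slc2a11b are needed for yellow and white pigment cells. The slc2a15a gene (chromosome 13, 28417297 to 28442086) read 13, 12.03, 12.2 and 12.4 FPKM in DMSO, 4.29, 5.02, 4.47 and 5.38 in GW9662, and 4.89, 6.61, 5.99 and 4.74 in rosiglitazone. Every treated library is below every DMSO library, and the compounds overlap. Its log2 change was -1.29 ± 0.10 with GW9662 (SE, adjusted p = 4.40e-07) and -1.103 ± 0.10 with rosiglitazone (adjusted p = 1.04e-05).

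The slc2a15b gene (chromosome 1, 31573225 to 31598417) read 14.6, 12.96, 14.6 and 15.6 FPKM in DMSO, 8.65, 9.52, 8.57 and 9.67 in GW9662, and 10.7, 9.71, 9.58 and 9.30 in rosiglitazone. Its changes were -0.64 ± 0.07 (adjusted p = 9.49e-06) and -0.53 ± 0.07 (adjusted p = 0.000161). The slc2a11b gene went from 10.5 ± 1.54 FPKM to 6.63 ± 0.674 and 7.09 ± 0.797, with changes of -0.62 ± 0.11 and -0.53 ± 0.11. For both genes the treated libraries lay below all 4 DMSO libraries and the compounds overlapped.

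The slc22a7a gene (chromosome 11, 30729745 to 30742966), whose mammalian counterpart carries organic anions in liver and kidney, read 14.0, 15.3, 14.1 and 12.7 FPKM in DMSO, 5.58, 5.01, 4.95 and 6.30 in GW9662, and 5.32, 6.06, 6.48 and 6.17 in rosiglitazone. It showed the same order of groups as slc2a15a. The log2 change of slc22a7a was -1.29 ± 0.09 with GW9662 (adjusted p = 1.16e-07) and -1.16 ± 0.09 with rosiglitazone (adjusted p = 2.01e-06).

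Of 7 pigment cell markers, all 7 were called lower in GW9662 embryos and 6 in rosiglitazone embryos, the exception being mitfa, the master regulator of black pigment cells. Their summed level ran from 382 to 389 FPKM in DMSO, 176 to 211 in GW9662 and 194 to 215 in rosiglitazone, and none was at 0. The pteridine synthesis gene gch2 went from 190.2 ± 5.41 FPKM to 93.8 ± 8.21 and 104 ± 4.76, and the melanin synthesis gene tyrp1b from 77.9 ± 4.51 to 27.0 ± 3.98 and 33.0 ± 4.05. In whole embryos, fewer cells of a type and less RNA per cell cannot be told apart. Among all tested genes 17.1% were lower with GW9662 and 7.68% with rosiglitazone. The fall was not particular to pigment markers. All 8 lens and all 8 tested skeletal muscle markers were lower with GW9662, and 7 and 6 of them with rosiglitazone. The part of pigment cells or of any other cell type in the 4 carrier results was not tested.

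**Figure D3:**
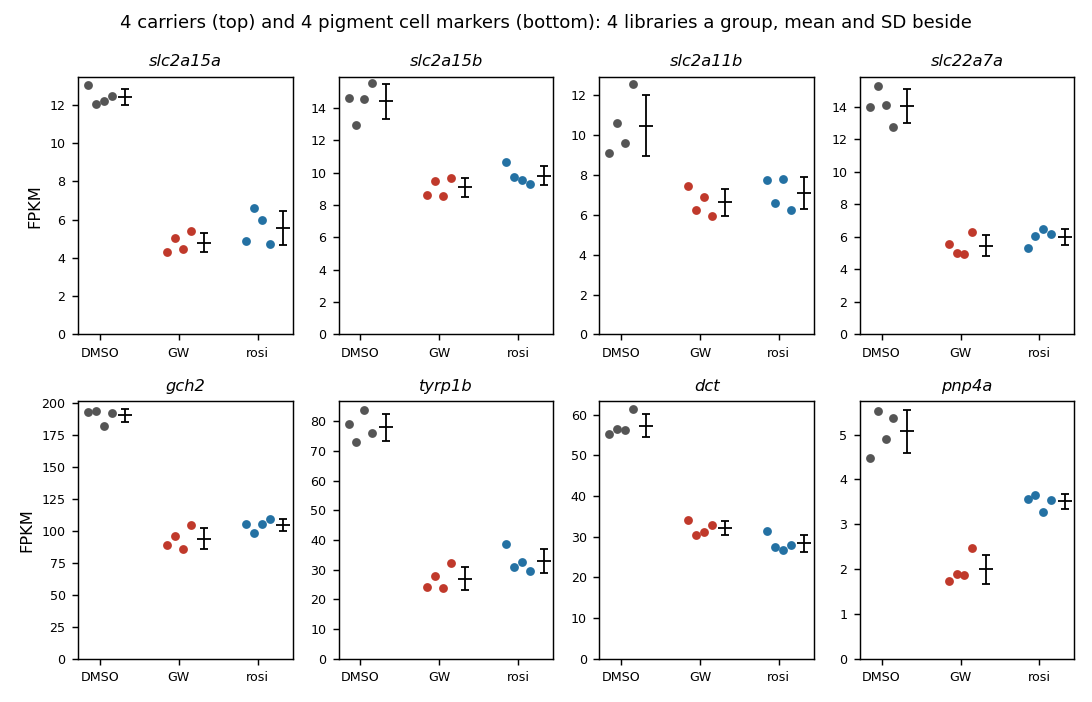
FPKM in each library (points) with the mean and SD beside (n = 4) for the carriers slc2a15a, slc2a15b, slc2a11b and slc22a7a and the pigment cell markers gch2, tyrp1b, dct and pnp4a; the 8 genes were picked for display after their values were seen. In each panel the GW9662 (GW) and rosiglitazone (rosi) libraries lie below all 4 DMSO libraries; gch2 goes from 190.2 to 93.8 and 104 FPKM.

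The monocarboxylate class held the carrier with the largest change. The members slc16a9b, slc16a6b, slc16a10 and slc16a6a rose under both compounds. The lactate carrier slc16a3 (MCT4) fell under both, and slc16a12b fell in GW9662 embryos. Of 8 tested members, 4 were higher and 2 lower with GW9662, and 4 higher and 1 lower with rosiglitazone. All tested genes were called at shares of 36.0% and 17.0%. The summed level of the class went with GW9662 from 60.1 ± 1.89 to 120.5 ± 4.55 FPKM, and reached 80.4 ± 4.55 with rosiglitazone (SD, n = 4). Most of this difference was slc16a9b alone, whose own level went from 7.75 ± 1.24 FPKM to 60.0 ± 4.09 with GW9662 and 22.6 ± 2.67 with rosiglitazone.

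The slc16a9b gene (ENSDARG00000104687, chromosome 12, minus strand, 7589193 to 7607114) belongs to a family member known in human for carnitine transport. It read 6.44, 8.24, 7.09 and 9.24 FPKM in DMSO, 65.7, 56.5, 60.5 and 57.5 in GW9662, and 25.3, 20.7, 24.5 and 19.96 in rosiglitazone. All GW9662 libraries are far above all rosiglitazone libraries, and these far above all DMSO libraries. The log2 change was 2.88 ± 0.11 with GW9662, or 7.39-fold (SE, adjusted p = 3.96e-10), and 1.49 ± 0.11 with rosiglitazone, or 2.81-fold (adjusted p = 1.27e-06).

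Its relatives slc16a6b and slc16a6a belong to a ketone body carrier family. In zebrafish slc16a6a exports beta-hydroxybutyrate from the liver. The slc16a6b libraries read 2.33, 2.23, 2.54 and 3.08 FPKM in DMSO, 7.24, 7.79, 7.56 and 6.33 in GW9662, and 3.99, 4.35, 4.75 and 3.73 in rosiglitazone. These 3 groups do not overlap, and the changes were 1.35 ± 0.10 (adjusted p = 4.02e-07) and 0.63 ± 0.10 (adjusted p = 0.00103). The slc16a6a gene, on an unplaced scaffold, went from 16.1 ± 0.728 FPKM to 20.4 ± 0.407 and 18.4 ± 1.02, a change of 0.33 ± 0.05 with GW9662 (adjusted p = 0.000193) and 0.19 ± 0.05 with rosiglitazone (adjusted p = 0.0212), whose libraries overlap DMSO. The rosiglitazone call of slc16a6a is lost without DMSO replicate 1 or 3 or rosiglitazone replicate 3 or 4 (adjusted p up to 0.0679).

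The aromatic amino acid carrier slc16a10 rose from 10.7 ± 0.569 FPKM to 14.8 ± 0.679 with GW9662 and 13.6 ± 0.999 with rosiglitazone, with no treated library at or below a DMSO library. MCT4, which exports lactate from glycolytic cells, read 6.16, 5.62, 4.55 and 5.04 FPKM in DMSO, 3.40, 2.67, 3.33 and 2.82 in GW9662, and 4.32, 4.20, 4.20 and 4.04 in rosiglitazone. The groups are again separate. It changed by -0.71 ± 0.10 with GW9662 (adjusted p = 8.05e-05) and -0.31 ± 0.10 with rosiglitazone (adjusted p = 0.0459). The latter is lost without any one of DMSO replicates 1, 2 and 4, GW9662 replicates 3 and 4 and rosiglitazone replicates 1 to 4 (adjusted p up to 0.135).

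Beside slc16a3, all 8 tested skeletal muscle markers were lower in GW9662 embryos, and 6 were lower and 1 higher in rosiglitazone embryos. Their sum ran from 9883 to 10350 FPKM in DMSO, 3764 to 4366 in GW9662 and 7056 to 9060 in rosiglitazone, with pvalb2 and mylpfa at or near 0 in each group. The creatine carrier slc16a12b, mutated in a human juvenile cataract, fell with GW9662 from 12.03 ± 0.973 to 8.68 ± 0.517 FPKM, by a log2 of 0.45 (adjusted p = 0.00288). It stood at 11.7 ± 1.96 with rosiglitazone (adjusted p = 0.799). All 8 lens markers were lower with GW9662 and 7 with rosiglitazone, with sums of 168 to 179, 15.5 to 21.8 and 56.9 to 80.7 FPKM in DMSO, GW9662 and rosiglitazone. Among all tested genes 17.1% were lower with GW9662 and 7.68% with rosiglitazone. The part of muscle and lens in these carrier results was not tested.

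The members slc16a1b and slc16a4 did not move past the threshold in either comparison with DMSO. The proton-coupled lactate and pyruvate carrier slc16a1b (MCT1) stood at 2.71 ± 0.441, 2.76 ± 0.465 and 2.60 ± 0.407 FPKM in DMSO, GW9662 and rosiglitazone. The slc16a4 gene stood at 1.72 ± 0.0776, 2.25 ± 0.397 and 1.69 ± 0.224 FPKM, all 4 GW9662 libraries being above DMSO (adjusted p = 0.0660). The lowest of them, replicate 2 at 1.834 FPKM, was barely above DMSO replicate 3 at 1.832. For slc16a4 the change with GW9662 passes without GW9662 replicate 2 (adjusted p = 0.0324) and without the trend in the prior variance (0.0406). Its difference between the compounds (adjusted p = 0.0563) passes without GW9662 replicate 2 or rosiglitazone replicate 2 (up to 0.0442). It also passes after quantile normalization or without that trend (up to 0.0497).

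Of the 8 tested genes listed with these carriers as chaperones and lactate or pyruvate enzymes, 1 was higher and 4 lower with GW9662. Their median log2 change was -0.35. With rosiglitazone 1 was higher and 2 lower, with a median of -0.17. The called shares of all genes were 36.0% and 17.0%. The heart-type lactate dehydrogenase ldhba rose with GW9662 from 384 ± 19.9 to 596 ± 46.2 FPKM, while ldha, the muscle type, fell from 32.0 ± 1.62 to 25.2 ± 0.927 and, with rosiglitazone, to 27.0 ± 2.20. Basigin (bsg), the chaperone that takes monocarboxylate carriers to the membrane, stood at 152 ± 9.20, 144 ± 5.68 and 174 ± 8.49 FPKM. Against DMSO bsg was called only with rosiglitazone (0.20, adjusted p = 0.0196). Between the compounds it was called lower with GW9662 (-0.27, adjusted p = 0.00146).

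The sulfate carrier slc13a4 rose strongly under both compounds, and the dicarboxylate carrier slc13a2 fell. Of 6 listed members of the slc13 class these 2 were tested, and both were called in each comparison with DMSO. A class of 2 is too small to set beside the 36.0% and 17.0% of all genes called. Between the compounds slc13a4 was called and slc13a2 was not (0.31 ± 0.12, adjusted p = 0.0696). The slc13a4 gene (chromosome 4, 4803698 to 4832149) read 20.7, 20.4, 21.7 and 21.8 FPKM in DMSO, 63.2, 57.6, 61.7 and 55.5 in GW9662, and 41.5, 40.0, 41.5 and 41.0 in rosiglitazone. The groups are far apart and each is tight. The change was 1.47 ± 0.05 with GW9662 (2.77-fold, SE, adjusted p = 1.08e-10) and 0.94 ± 0.05 with rosiglitazone (1.92-fold, adjusted p = 6.47e-08). It overlaps coa6 on the opposite strand, which stood at 4.01, 6.55 and 6.03 FPKM in the 3 groups; the label protocol describes both strand-specific and unstranded libraries, so reads of overlapping genes are uncertain.

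Levels of slc13a2 were 2.33, 2.17, 2.07 and 2.60 FPKM in DMSO, 1.396, 2.095, 1.63 and 1.82 in GW9662, and 1.44, 1.08, 1.33 and 1.36 in rosiglitazone. Rosiglitazone libraries all lay below DMSO, and 1 GW9662 library overlapped it. The changes were -0.63 ± 0.12 with rosiglitazone (adjusted p = 0.00267) and -0.33 ± 0.12 with GW9662 (adjusted p = 0.0473). The GW9662 call of slc13a2 is lost without DMSO replicate 1, 2 or 4, GW9662 replicate 1, 3 or 4 or rosiglitazone replicate 3 or 4 (adjusted p up to 0.137). That call is also lost under 6 of the other settings tried (up to 0.0794). The sulfate-activating enzymes papss1 and papss2b were not called, at 22.2 ± 1.65, 23.3 ± 1.27 and 21.8 ± 1.77 FPKM and at 28.0 ± 1.94, 26.8 ± 1.67 and 29.2 ± 0.879 FPKM in DMSO, GW9662 and rosiglitazone.

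In the bile acid family 1 of 4 tested members was called with each compound, a count too small to set apart from the 36.0% and 17.0% of all genes called. With GW9662 slc10a3 rose from 18.99 ± 1.55 to 25.2 ± 0.502 FPKM (0.40 ± 0.06, adjusted p = 0.000186), and it stood at 20.4 ± 1.24 with rosiglitazone. With rosiglitazone slc10a1, the sodium-dependent bile acid uptake carrier of hepatocytes (NTCP), rose by 0.40 ± 0.11 (adjusted p = 0.0253). Its libraries read 3.54, 2.53, 2.70 and 3.50 FPKM in DMSO, 3.55, 2.83, 2.76 and 3.08 in GW9662, and 4.15, 4.25, 4.51 and 3.83 in rosiglitazone. The rosiglitazone libraries are the highest 4, but the call is lost without DMSO replicate 2 or 3 or rosiglitazone replicate 2 or 3 (adjusted p up to 0.0766). The slc10a7 gene, needed for human skeletal development, held 9.84 ± 0.539, 10.8 ± 0.394 and 10.6 ± 0.925 FPKM, and slc10a4 2.66 ± 0.453, 2.53 ± 0.199 and 2.29 ± 0.436, without a call.

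Of 4 tested genes of bile acid and sulfate handling, 1 was called with each compound, beside 36.0% and 17.0% of all genes. The abcb11a gene, named after the bile salt export pump, rose from 2.51 ± 0.106 FPKM to 7.59 ± 1.19 with GW9662 and 14.6 ± 1.57 with rosiglitazone, log2 changes of 1.42 (adjusted p = 1.70e-07) and 2.32 (adjusted p = 3.24e-08). Its paralogue abcb11b was near 0, at 0.0279, 0.00385 and 0.00762 FPKM in DMSO, GW9662 and rosiglitazone. The bile acid genes cyp7a1, cyp8b1 and nr1h4 were also too low to test. Liver markers were only in part detected: fabp10a and ttr stood under 0.3 FPKM in each group, and hhex was not found by symbol. Of the 3 tested, 1 was higher and 1 lower with GW9662, and 2 were higher with rosiglitazone. These are too few to set beside the shares of all genes. Among them tfa was higher under both compounds, and cp was lower with GW9662 and higher with rosiglitazone. The marker prox1a was not called, at 6.26 ± 0.665, 5.96 ± 1.03 and 6.67 ± 0.915 FPKM in DMSO, GW9662 and rosiglitazone.

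The vitamin carriers slc23a1 and slc23a3 rose with GW9662, and neither was called with rosiglitazone. The sodium-coupled ascorbate carrier slc23a1 read 3.85, 3.64, 4.16 and 3.72 FPKM in DMSO, 6.38, 6.05, 6.35 and 6.50 in GW9662, and 4.67, 3.29, 5.35 and 4.41 in rosiglitazone. All GW9662 libraries lay above the other 8. Its change was 0.65 ± 0.11 with GW9662 (adjusted p = 0.000431) and 0.17 ± 0.11 with rosiglitazone (adjusted p = 0.346). The rosiglitazone change passes only without rosiglitazone replicate 2 (adjusted p = 0.0308), and not without any other single library or under any other setting tried. The related slc23a3, whose substrate is less well known, rose from 3.87 ± 0.561 to 8.18 ± 0.772 FPKM with GW9662 (0.996 ± 0.12, adjusted p = 2.66e-05).

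The folate carriers were not called. The reduced folate carrier slc19a1 stood at 2.02 ± 0.288, 2.62 ± 0.467 and 2.12 ± 0.460 FPKM, and the proton-coupled folate carrier slc46a1 at 2.47 ± 0.259, 2.35 ± 0.507 and 3.09 ± 0.295 FPKM, in DMSO, GW9662 and rosiglitazone. Of 14 tested folate and thiamine enzymes, 7 were higher and 3 lower with GW9662, with a median of 0.22. With rosiglitazone 4 were higher and none lower, with a median of 0.12. Among all genes 36.0% and 17.0% were called. The purine synthesis enzyme gart rose with GW9662 from 90.2 ± 5.47 to 136 ± 5.25 FPKM. Thymidylate synthase tyms fell with GW9662 from 57.7 ± 4.08 to 40.5 ± 0.458 FPKM, and dihydrofolate reductase dhfr from 27.4 ± 2.26 to 20.5 ± 2.499.

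Organic ion carriers formed the largest class, with 15 of 34 tested. GW9662 embryos had 6 higher and 3 lower, and rosiglitazone embryos 5 higher and 3 lower, against 36.0% and 17.0% of all genes called. Carriers higher under both were slco1d1, slc47a1, slc22a31 and slc22a23, and lower under both were slc22a7a and slc22a16. The slc22a6l gene, an organic anion carrier related to the kidney carrier OAT1, rose with GW9662 and fell with rosiglitazone. The summed level of the class was 77.0 ± 3.89 FPKM (SD, n = 4) with vehicle, 97.5 ± 0.566 with GW9662 and 83.7 ± 1.88 with rosiglitazone.

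Zebrafish slco1d1, which takes up conjugated steroid hormones, read 5.14, 5.72, 5.87 and 4.68 FPKM in DMSO, 10.5, 9.88, 11.03 and 9.46 in GW9662, and 10.3, 10.4, 9.97 and 9.89 in rosiglitazone. Both compounds sat apart from DMSO and on top of each other, with a log2 change of 0.87 ± 0.07 in each (adjusted p = 9.47e-07 and 5.58e-06). The difference between the compounds was 0.01 ± 0.07. The slco1d1 gene lies in a cluster of slco1 genes on chromosome 4. How alike their sequences are was not examined, and counts of near-identical copies would be uncertain. The proton-coupled extruder slc47a1 (MATE1 in mammals), which secretes organic cations, rose from 6.19 ± 0.472 FPKM to 11.3 ± 0.627 with GW9662 and 9.82 ± 0.823 with rosiglitazone, by 0.82 and 0.63.

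The slc22a31 gene, whose substrate is not established, rose from 11.6 ± 0.786 FPKM to 20.1 ± 0.345 and 16.7 ± 1.05, by 0.77 and 0.51, with 3 groups that do not overlap. Its relative slc22a23, also without an established substrate, read 5.55, 5.69, 6.73 and 3.93 FPKM in DMSO, 9.95, 9.62, 9.96 and 6.78 in GW9662, and 6.51, 8.51, 8.94 and 7.86 in rosiglitazone. Replicate 4 was the lowest of its group in DMSO and in GW9662. The changes of slc22a23 were 0.69 ± 0.16 (adjusted p = 0.00369) and 0.51 ± 0.16 (adjusted p = 0.0388), and the latter is lost without DMSO replicate 1, 2 or 4 or rosiglitazone replicate 2, 3 or 4 (adjusted p up to 0.103).

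The carnitine carriers of this class went opposite ways with GW9662. The high-affinity carnitine carrier slc22a5 (OCTN2) rose from 0.981 ± 0.0801 to 1.71 ± 0.400 FPKM (0.56 ± 0.15, adjusted p = 0.00850) and stood at 1.003 ± 0.171 with rosiglitazone. The slc22a16 gene, a carnitine carrier of the human testis, read 6.14, 6.21, 6.77 and 5.15 FPKM in DMSO, 2.17, 2.37, 2.08 and 2.69 in GW9662, and 4.29, 3.24, 4.11 and 4.48 in rosiglitazone. Its 3 groups were separate, with log2 changes of -1.22 ± 0.11 with GW9662 (adjusted p = 2.11e-06) and -0.54 ± 0.11 with rosiglitazone (adjusted p = 0.00484). It overlaps hpcal1 on the opposite strand, which stood at 3.86, 3.69 and 4.19 FPKM in the 3 groups.

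With GW9662 slco3a1 fell from 1.31 ± 0.491 to 0.577 ± 0.0597 FPKM (-0.70 ± 0.20, adjusted p = 0.0143). It reached 1 FPKM in only 4 libraries, DMSO replicates 1 to 3 and rosiglitazone replicate 2. Without any one of these slco3a1 is not tested. DMSO replicate 4, at 0.657 FPKM, was barely above GW9662 replicate 1, at 0.650. The thyroid hormone carrier slco1c1 of brain vessels held 1.61 ± 0.157, 1.87 ± 0.197 and 1.79 ± 0.243 FPKM without a call. Pronephros markers, given beside the kidney carriers of this class, were called higher with GW9662 in 4 of 6 tests and with rosiglitazone in 3. None of the 6 was called lower. Of all genes, 18.9% were higher with GW9662 and 9.29% with rosiglitazone. The markers summed to 84.2 to 91.5 FPKM in DMSO, 111 to 119 in GW9662 and 109 to 117 in rosiglitazone, with hnf1ba near 0 in each group. The marker cubn, too low to test, went the other way with GW9662. It stood at 0.5545 ± 0.0829, 0.220 ± 0.0287 and 0.476 ± 0.0796 FPKM in DMSO, GW9662 and rosiglitazone. The part of the pronephros in the carrier results was not tested.

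Of 6 fatty acid carriers 4 were tested, and all 4 were called with GW9662, 2 higher and 2 lower. With rosiglitazone slc27a2a was called, lower, and the other 3 were not. The shares of all genes called were 36.0% with GW9662 and 17.0% with rosiglitazone. The untested members were slc27a4 and the second slc27a1b ID. The slc27a2a gene (FATP2, a very long chain acyl-CoA synthetase; chromosome 18, 62932 to 73844) was the most abundant carrier in every group. It read 99.8, 95.3, 101 and 109.8 FPKM in DMSO, 159.8, 163, 149.7 and 176 in GW9662, and 86.2, 80.3, 80.5 and 89.6 in rosiglitazone. The GW9662 libraries are the highest and the rosiglitazone libraries the lowest, with no overlap. The change was 0.67 ± 0.06 with GW9662 (adjusted p = 1.43e-06) and -0.27 ± 0.06 with rosiglitazone (adjusted p = 0.00670). Its share of the summed carrier level was 24.7 ± 1.58% and 17.1 ± 0.795%.

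With GW9662 slc27a6 rose from 0.956 ± 0.112 to 1.55 ± 0.235 FPKM and slc27a1a (FATP1) fell from 7.92 ± 0.265 to 5.50 ± 0.756, by 0.50 ± 0.09 (adjusted p = 0.000620). The paralogue slc27a1b fell from 1.18 ± 0.148 to 0.752 ± 0.0982 FPKM (adjusted p = 0.0274), a call that is lost without DMSO replicate 1, 3 or 4 or GW9662 replicate 3 (adjusted p up to 0.0792). It reached 1 FPKM in DMSO replicates 1, 3 and 4 and rosiglitazone replicates 2 to 4, and in no GW9662 library (at most 0.814). So slc27a1b entered the test only through the groups where it is higher. With rosiglitazone slc27a1a stood at 6.61 ± 0.542 FPKM, below DMSO in all 4 libraries (-0.25 ± 0.09, adjusted p = 0.0724), and passes without GW9662 replicate 4 or rosiglitazone replicate 1 (adjusted p up to 0.0496).

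Of 10 tested fatty acid activation genes, 4 were higher and 3 lower with GW9662 (median 0.26). With rosiglitazone 5 were higher and none lower (median 0.19). Among all genes 36.0% and 17.0% were called. The acyl-CoA synthetases acsl4a and acsl1b rose under both compounds, from 15.5 ± 0.920 FPKM to 24.2 ± 1.84 and 22.9 ± 1.25 and from 14.0 ± 1.53 to 23.5 ± 3.03 and 20.1 ± 1.35. The 3 lower with GW9662 were acsf2, acsl1a and acsbg2, with log2 changes of -0.59, -0.64 and -0.32. With rosiglitazone acsbg2 was called higher, by 0.42, so its directions were the reverse of those of slc27a2a. The fatty acid receptor cd36 rose with GW9662 from 1.52 ± 0.453 to 4.002 ± 1.33 FPKM and stood at 0.786 ± 0.891 with rosiglitazone. Yolk syncytial layer markers, given beside slc27a2a, were higher for 5 and lower for 2 of 7 gene IDs tested with GW9662, and higher for 2 and lower for 1 with rosiglitazone. They summed to 2975 to 3189 FPKM in DMSO, 3371 to 3577 in GW9662 and 2760 to 3405 in rosiglitazone, ctsl.1 was near 0 in each group, and their part in the result was not tested.

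The nucleoside carriers slc29a1a and slc29a3 rose with GW9662 and slc29a4 fell under both compounds. The most abundant, slc29a1a (ENT1), read 21.96, 25.4, 24.0 and 22.4 FPKM in DMSO, 26.3, 26.6, 27.9 and 25.8 in GW9662, and 23.6, 25.6, 24.8 and 24.4 in rosiglitazone. GW9662 lay just above DMSO (0.18 ± 0.05, adjusted p = 0.0142), but not after quantile normalization (adjusted p = 0.170). The lysosomal carrier slc29a3 rose with GW9662 from 2.65 ± 0.261 to 3.39 ± 0.144 FPKM (adjusted p = 0.0379), which is lost without DMSO replicate 2 or 3 or any one GW9662 replicate (adjusted p up to 0.105).

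The monoamine carrier slc29a4 fell under both compounds, from 2.33 ± 0.176 FPKM to 1.49 ± 0.0915 and 1.63 ± 0.113, by 0.51 ± 0.09 (adjusted p = 0.000686) and 0.40 ± 0.09 (adjusted p = 0.00804). Of 5 tested members, 2 were higher and 1 lower with GW9662, and 1 was lower with rosiglitazone. Among 14 tested nucleoside salvage genes 2 were higher and 4 lower with GW9662 (median -0.07), and 3 higher and 1 lower with rosiglitazone (median 0.13). The carrier and salvage counts stand beside 36.0% and 17.0% of all genes called with GW9662 and rosiglitazone. The purine nucleoside phosphorylase pnp5a rose with GW9662 from 16.6 ± 1.07 to 29.3 ± 2.73 FPKM and deoxycytidine kinase dck fell from 6.77 ± 1.14 to 4.13 ± 1.15. Another salvage gene, pnp4a, which also stands among the pigment markers, fell from 5.07 ± 0.474 to 1.999 ± 0.323.

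**Figure D4:**
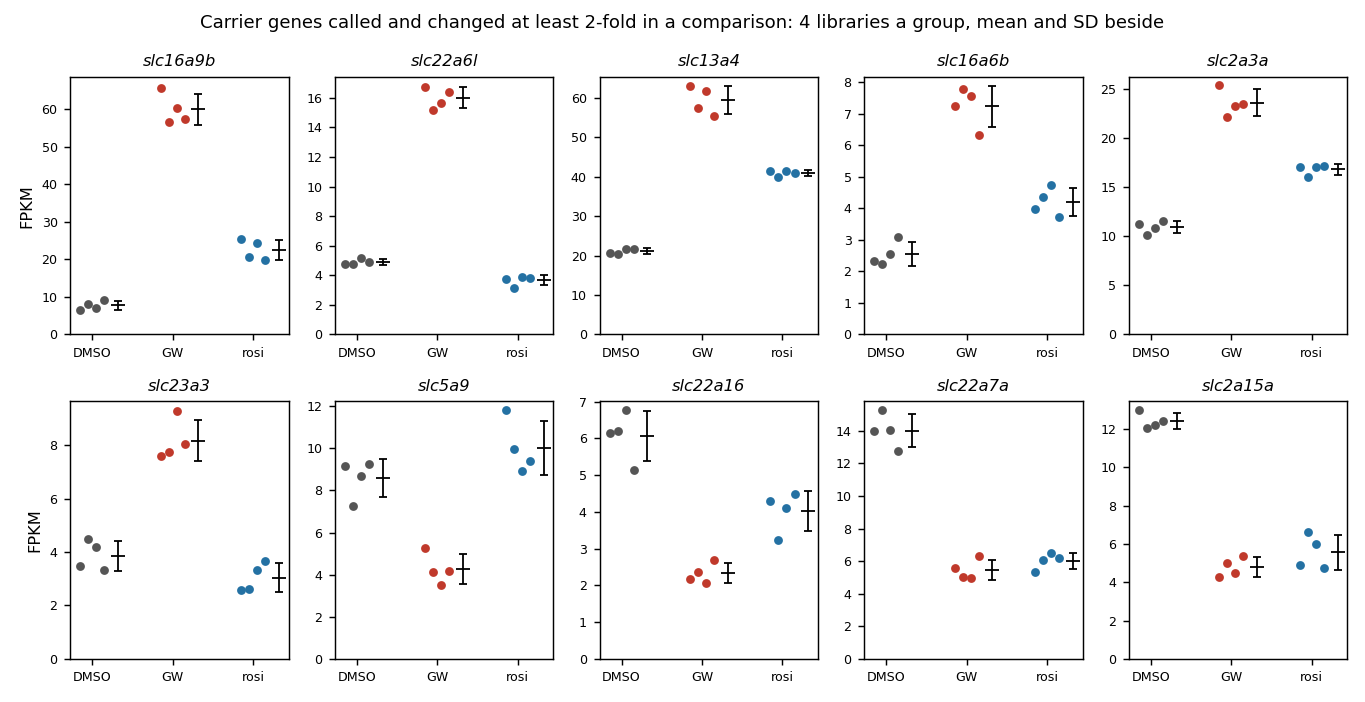
FPKM in each library (points) with the mean and SD beside (n = 4) for the 10 carriers that were called with at least a 2-fold change in any of the 3 comparisons; GW is GW9662 and rosi is rosiglitazone. The rosiglitazone libraries lie between DMSO and GW9662 for slc16a9b (19.96 to 25.3 FPKM), slc13a4, slc16a6b, slc2a3a and slc22a16, near GW9662 for slc22a7a and slc2a15a, and on the DMSO side for slc22a6l, slc23a3 and slc5a9.

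The direct comparison of GW9662 with rosiglitazone, at 75 and 25 µM, called 24 of the 55 tested carriers (43.6%), 15 higher and 9 lower in GW9662, against 30.5% of all tested genes, 16.0% higher and 14.5% lower. The median log2 difference was 0.11. Of these, 4 carriers differed at least 2-fold (7.27%, against 2.73% of all genes), namely slc22a6l, slc16a9b, slc23a3 and slc5a9. The groups did not overlap for 24 carriers (43.6%, against 29.4% of all genes), 14 above (15.4% of all genes) and 10 below (14.0%).

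The largest difference was in slc22a6l (ENSDARG00000055523, chromosome 21, 28478663 to 28494322). It read 4.73, 4.76, 5.14 and 4.90 FPKM in DMSO, 16.7, 15.2, 15.7 and 16.4 in GW9662, and 3.75, 3.16, 3.90 and 3.82 in rosiglitazone. GW9662 libraries were all above and rosiglitazone libraries all below DMSO. Against DMSO it changed by 1.61 ± 0.07 with GW9662 (adjusted p = 1.75e-09) and -0.38 ± 0.07 with rosiglitazone (adjusted p = 0.00239), and the compounds differed by 1.99 ± 0.07 (3.97-fold, adjusted p = 6.27e-10). A ribosomal RNA entry on the same strand within its span stood at 0.808, 2.69 and 0.435 FPKM in the 3 groups, and reads of the shared part could be split between them.

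Both slc22a6l and slc27a2a were called against DMSO with opposite signs, and no other carrier was. Between the compounds slc27a2a differed by 0.94 ± 0.06 (1.92-fold, adjusted p = 9.80e-08). The slc23a3 libraries read 3.46, 4.49, 4.19 and 3.33 FPKM in DMSO, 7.60, 7.76, 9.30 and 8.06 in GW9662, and 2.56, 2.61, 3.33 and 3.65 in rosiglitazone. Rosiglitazone overlapped DMSO at the low end (-0.31 ± 0.12, adjusted p = 0.103), and the compounds differed by 1.303 ± 0.12 (adjusted p = 3.64e-06).

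In the sugar class slc5a9 and slc2a1a were lower, and slc2a3a higher, in GW9662 than in rosiglitazone embryos, and the other 10 tested members were not called. The slc5a9 gene (chromosome 8, 15254564 to 15268932) read 9.16, 7.26, 8.70 and 9.24 FPKM in DMSO, 5.26, 4.13, 3.53 and 4.18 in GW9662, and 11.8, 9.95, 8.94 and 9.38 in rosiglitazone. GW9662 libraries were the lowest 4, and rosiglitazone overlapped DMSO. Its change was -0.94 ± 0.12 with GW9662 (adjusted p = 3.43e-05), stood at 0.21 ± 0.12 with rosiglitazone (adjusted p = 0.262), and differed by -1.14 ± 0.12 between the compounds (adjusted p = 8.64e-06).

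GLUT1 (slc2a1a), the glucose carrier of brain vessels and red cells, read 6.25, 6.10, 7.52 and 7.56 FPKM in DMSO, 6.59, 4.62, 5.85 and 5.51 in GW9662, and 8.81, 11.99, 10.2 and 8.55 in rosiglitazone. The rosiglitazone libraries stood above the other 8. It rose with rosiglitazone by 0.49 ± 0.12 (adjusted p = 0.0142), was not called with GW9662 (-0.26 ± 0.12, adjusted p = 0.112), and differed by -0.76 ± 0.12 between them (adjusted p = 0.000429). Of 6 endothelial markers, 3 were lower with GW9662 (cldn5b, mfsd2aa and pecam1) and 1 with rosiglitazone (pecam1), against 17.1% and 7.68% of all genes. The list holds general vessel genes such as kdrl and cdh5, so its counts are not particular to brain vessels. The 6 markers summed to 30.6 to 32.7, 25.0 to 26.8 and 29.3 to 30.8 FPKM in DMSO, GW9662 and rosiglitazone. Of 6 tested erythroid markers, 1 was higher and 1 lower with GW9662, and none was called with rosiglitazone. Of all tested genes 36.0% and 17.0% were called in either direction, and 6 markers are too few to set apart from these shares. The part of either cell type in the result was not tested. The paralogue slc2a1b stood at 2.61 ± 0.522, 3.18 ± 0.658 and 2.24 ± 0.605 FPKM and was not called.

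The slc22a18 gene, an organic cation carrier family member imprinted in human, rose with rosiglitazone from 5.21 ± 0.195 to 7.58 ± 0.643 FPKM (0.50 ± 0.08, adjusted p = 0.000875), stood at 4.73 ± 0.479 with GW9662, and differed by -0.63 ± 0.08 between the compounds. The organic cation carrier slc22a2 held 2.08 ± 0.345, 2.47 ± 0.154 and 1.53 ± 0.178 FPKM in DMSO, GW9662 and rosiglitazone. It was not called against DMSO in either, though all 4 rosiglitazone libraries lay below DMSO (adjusted p = 0.05735). The rosiglitazone change passes without DMSO replicate 4 (adjusted p = 0.0331) and under 3 other settings tried (up to 0.0489). Between the compounds slc22a2 differed by 0.55 ± 0.11 (adjusted p = 0.00244). The other calls between the compounds with GW9662 higher were slc10a3, slc13a4, slc16a6b, slc16a9b, slc2a3a, slc22a31, slc22a5, slc23a1 and slc29a1b, with differences from 0.26 to 1.39. Lower with GW9662 were slc10a1, slc16a3, slc16a12b and slc22a16, from -0.68 to -0.40.

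The remaining calls between the compounds, slc16a6a and slc27a6 higher and slc27a1a and slc27a1b lower with GW9662, had adjusted p from 0.0359 to 0.0459, and each was lost without several single libraries. For slc16a6a these were DMSO replicates 1 to 3, GW9662 replicates 1 to 4 and rosiglitazone replicates 1 to 3 (adjusted p up to 0.124). For slc27a1a they were DMSO replicates 1 to 4, GW9662 replicates 1 to 3 and rosiglitazone replicates 1, 2 and 4 (up to 0.130). For slc27a1b they were GW9662 replicates 1 to 3 and rosiglitazone replicates 2 to 4 (up to 0.102), and for slc27a6 DMSO replicates 1 and 3, GW9662 replicates 1, 3 and 4 and rosiglitazone replicates 1, 3 and 4 (up to 0.122).

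**Figure D5:**
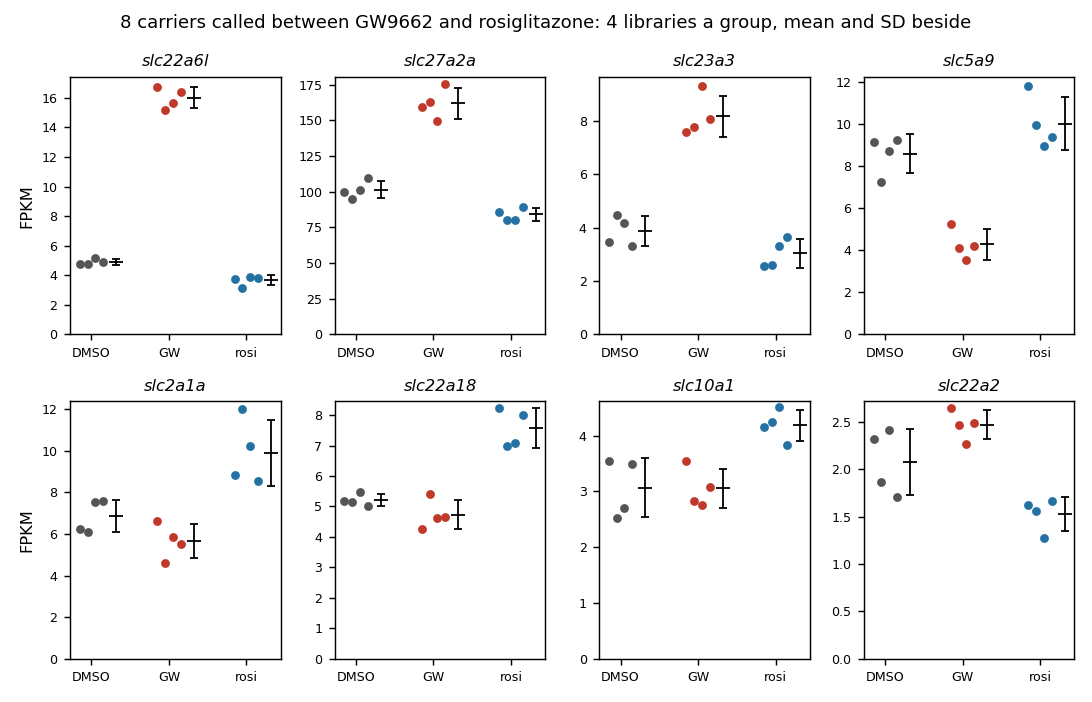
FPKM in each library (points) with the mean and SD beside (n = 4) for 8 carriers called between GW9662 (GW) and rosiglitazone (rosi), picked for display after their values were seen. For slc22a6l and slc27a2a the compounds lie on opposite sides of DMSO, with slc22a6l at 15.99 and 3.66 FPKM against 4.88 in DMSO.

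Glucose enters the cell on the slc2 carriers and is then phosphorylated or stored, and in liver and gut it is released after dephosphorylation. Of 17 tested glucose trapping and release genes, 3 were higher and 5 lower with GW9662 and 4 higher and 3 lower with rosiglitazone. The medians were -0.05 and -0.01, and 36.0% and 17.0% of all genes were called. The glucose-6-phosphatase genes g6pca.1 and g6pca.2 rose under both compounds, from 1.95 ± 0.337 FPKM to 5.66 ± 1.0 and 4.39 ± 0.431, and from 14.4 ± 1.95 to 35.5 ± 1.31 and 22.5 ± 2.83. The muscle glycogen genes pygma and gys1 fell under both, pygma from 74.6 ± 1.25 FPKM to 37.0 ± 3.17 and 61.9 ± 4.30. Hexokinases hk1 and hk2 were not called, at 4.996 ± 1.15 and 1.47 ± 0.649 FPKM in DMSO.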

How the data were processed

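The authors deposited FPKM per gene and library, made with HISAT2 2.0.5 and featureCounts 1.5.0-p3 per the submitters' processing notes, with gene lengths and coordinates (other columns of the deposited table). Of the build, the sources used here say nothing. Multiplied by length, 100% of values were whole multiples of what 1 fragment is worth in that library (tolerance 0.001), which gave the fragments. The library size these imply was 0.957 to 1.04 of their sum.

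Carriers were found by symbol, and 2 upper-case symbols and 6 IDs that fit only by a reference symbol stayed out. The tests were run on log2(FPKM + 0.5) with limma 3.58.1 in R 4.3.3 (trend in the prior variance, all 12 libraries, 3 contrasts, two-sided), adjusted by Benjamini-Hochberg over 14433 genes at 0.05. The carriers and gene lists were chosen with earlier results of these data known. Of 37 genes named by rule, 28 were called (up to 5 a class, by smallest adjusted p), 16 were the 2 most abundant of a class, 10 had at least a 2-fold called change, 2 opposite signs and 5 were just under the filter. A gene may count more than once, and other genes were named after their values were seen. Other pseudocounts, filters, scalings, variance models, a replicate block and leaving out libraries were tried, and the scripts were tested on simulated data. Python 3.11.15 with pandas 2.3.3, numpy 2.4.6 and matplotlib 3.10.9 was used for tables and plots.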

Additional observations from a re-analysis of the deposited data

Results flagged for a closer look

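Among 165 groups of 4 libraries (55 tested carriers in 3 groups), 4 held a library far from the other 3 by Dixon's criterion, which chance gives in about 1 of 20 groups. The slc22a23 level was 6.78 FPKM in GW9662 replicate 4, against 9.62 to 9.96 in the others. The slc5a3b level was 0.681 FPKM in DMSO replicate 2, against 1.14 to 1.22. The slc10a7 level was 10.2 FPKM in GW9662 replicate 3, against 10.96 to 11.1, and the slc2a3a level was 15.97 FPKM in rosiglitazone replicate 2, against 17.0 to 17.1. Without the library in question, slc22a23 and slc2a3a kept their calls, and slc5a3b lost that with rosiglitazone.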

How the results depend on the processing

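No carrier called against DMSO or between the compounds changed sign under any setting tried. Of the calls, 31 of 36 with GW9662, 21 of 26 with rosiglitazone and 20 of 24 between the compounds held under every setting and left-out library that tested the gene. The others are named beside their values, and the cause was not tested. Changed settings with all libraries kept also ended calls. With GW9662 these were slc13a2 (6 settings), slc29a3 (3) and slc27a1b, slc2a8 and slc29a1a (1 each). With rosiglitazone they were slc16a3 (3), slc22a23 (2) and slc16a6a (1). Between the compounds they were slc16a6a (6) and slc27a1a, slc27a1b and slc27a6 (4 each). Some setting or left-out library also added calls, for 1 carrier with GW9662, 4 with rosiglitazone and 6 between the compounds. With GW9662 this was slc16a4, and with rosiglitazone slc22a2, slc23a1, slc27a1a and slc29a1b. Between the compounds they were slc13a2, slc16a4, slc22a15, slc29a3, slc2a1b and slc46a1, the last with an adjusted p of 0.0134 without GW9662 replicate 1. With a filter of 5 FPKM, 8 carriers rather than 13 were called lower with GW9662, because fewer genes were tested. That filter called 27 of 30 carriers with GW9662 (90.0%, against 44.7% of all genes), 21 of 30 with rosiglitazone (70.0%, against 23.6%) and 17 of 30 between the compounds (56.7%, against 38.2%). Leaving out 1 library gave 32 to 36, 22 to 26 and 20 to 23 calls, with 21 to 23, 13 to 16 and 13 to 15 higher and 10 to 13, 9 to 10 and 7 to 9 lower, while 31.2 to 38.8%, 12.6 to 17.3% and 25.9 to 30.4% of all genes were called. With the replicate number as a block the counts were 33 (22 higher, 11 lower), 26 (16 and 10) and 22 (15 and 7), against 36.9%, 16.9% and 30.9% of all genes. Under the block the calls with GW9662 of slc13a2 (adjusted p = 0.0697), slc27a1b (0.0503) and slc29a3 (0.0567) and those between the compounds of slc27a1a (0.0655), slc27a1b (0.0630) and slc27a6 (0.0572) were lost, and slc2a1b was gained between the compounds (0.0305). Residual correlations of equal numbers ran from -0.0502 to 0.228, and only 2, 1 and 1 of 4 numbers correlated best with their own, so the numbers were not taken as a pairing. Depth limits the lowest genes: the fewest fragments of a tested carrier over the 4 libraries of a group were 103.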

Other observations

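Several carriers that the main filter left out showed differences that a lower filter of 0.3 FPKM in 4 libraries brings into the test. It adds 22 carriers, of which 5 were called with GW9662, 1 with rosiglitazone and 2 between the compounds. With that filter 30.7%, 13.5% and 25.8% of all 18148 genes tested were called. Of these genes 14433 also passed the main filter, so the shares are no measure for genes as low as the added carriers. The extruder slc47a4 read 0.275, 0.373, 0.241 and 0.750 FPKM in DMSO, 1.44, 1.18, 1.38 and 0.892 in GW9662, and 0.824, 0.541, 0.757 and 0.891 in rosiglitazone, a log2 change of 0.94 ± 0.18 with GW9662 (SE, adjusted p = 0.00114). All GW9662 libraries lay above DMSO. The sodium-coupled monocarboxylate carrier slc5a8 read 1.74, 1.70, 0.765 and 1.82 FPKM in DMSO, 0.360, 0.687, 0.654 and 0.345 in GW9662, and 0.348, 0.434, 0.727 and 0.424 in rosiglitazone. Every treated library lay below DMSO, and its changes were -0.97 ± 0.21 (adjusted p = 0.00299) and -1.004 ± 0.21 (adjusted p = 0.00575). It overlaps lyrm5a on the opposite strand, at 2.15, 1.99 and 2.004 FPKM in the 3 groups.

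The thiamine carrier slc19a2 stood at 0.420, 0.849 and 0.548 FPKM in DMSO, GW9662 and rosiglitazone, and rose with GW9662 by 0.56 ± 0.16 (adjusted p = 0.0165). The prostaglandin carrier slco2a1 stood at 0.177, 0.529 and 0.278 FPKM and rose with GW9662 by 0.60 ± 0.14 (adjusted p = 0.00425). It reached 0.3 FPKM in every GW9662 library (0.422 to 0.661) and in no DMSO library (at most 0.269). Of the rosiglitazone libraries only replicate 2 did (0.462). So slco2a1 entered this test through the group where it is high, and its call is no evidence of its own. Passage through 1 group was not counted for the other added carriers. With that filter slc46a2 rose with GW9662 by 0.54 ± 0.13 (adjusted p = 0.00757). The citrate carriers slc13a5a and slc13a5b, which reached 1 FPKM in 2 libraries and 1 library, were not called with that filter. With no filter beyond a value above 0 in a library, 53 carriers are added and 9, 2 and 8 of them called. All genes were called in 20.9%, 8.56% and 17.1%, shares that again include the genes of the main filter. The added carriers lie at levels where the pseudocount sets much of the change.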
